A study of Mus musculus with 8 samples.

Results

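Intraflagellar transport, BBSome and ciliary motor genes were read from staged RNA-seq libraries of mouse testis: 12 (d12), 16 (d16) and 24 (d24) days after birth, and adult. The 36 genes were taken by symbol from the 23983 genes of the deposited table: 6 of the IFT-A complex, 9 of the core and 5 of the peripheral part of the IFT-B complex, 7 of the BBSome, 3 chaperonin-like genes needed to build the BBSome, 4 of kinesin-2 and 2 of cytoplasmic dynein-2. Every library came from total RNA of a testis piece of mice whose genotype the labels give as C57BL/6J, with no treatment and no transgene named, and there was 1 library per stage. The labels do not say how many animals gave each piece. No spread between animals can therefore be given, no stage comparison was tested, and the words higher and lower below describe these 4 libraries.

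Cilia and flagella are built at their tip, and their parts are carried there along the microtubules of the axoneme by trains of IFT-A and IFT-B particles. Kinesin-2 pulls the trains outward and dynein-2 brings them back, while the BBSome, an adaptor that rides on the trains, moves membrane proteins in and out. In the testis the same machinery is used by round spermatids when they assemble the sperm tail, and mice lacking several IFT genes in germ cells make few or misshapen sperm.

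Levels are given in FPKM, fragments scaled to transcript length and to the mapped fragments, so that levels of different genes can be compared per length. The fragments behind a value were recovered from the steps of low FPKM values, and ranged from 21 to 20923 for a member in a library. At least 100 fragments stood behind 30, 33, 36 and 34 of the 36 members at d12, d16, d24 and adult. Ranges in parentheses are exact 95% intervals from these fragments, Poisson for a level and Clopper-Pearson for a ratio, and cover counting error only. The FPKM values of all genes summed to 283580, 307964, 472726 and 659202 in the same order.

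The libraries carried the germ cell markers of a testis, in proportions that moved with the stage. The 6 markers of pachytene spermatocytes, cells in late meiotic prophase, summed to 49.0, 827.0, 3630 and 4364 FPKM at d12, d16, d24 and adult, and 6 of 6 were at least 2-fold higher at each of the steps to d16 and to d24. Round spermatids are the first haploid cells, and their 6 markers summed to 3.82, 15.3, 557.9 and 1664 FPKM, with 6 of 6 at least 2-fold higher from d16 to d24 and Acrv1 listed at 0 at d16. The 6 markers of elongating spermatids summed to 13.2, 4.45, 2363 and 26392 FPKM, none of them at 0 in any library. The 6 markers of early meiotic spermatocytes summed to 891.1, 1661, 1123 and 1093 FPKM, with a median log2 change of 0.92 from d12 to d16. At that step 4 of 6 were higher, 1 of them at least 2-fold, and 2 were lower. The lower ones were Dmc1, from 45.7 to 33.3 FPKM, and Prdm9, from 15.7 to 12.2 FPKM. Median levels of 6 spermatogonial markers were 47.9, 30.3, 13.4 and 9.37 FPKM, and those of 6 Sertoli cell markers 26.3, 18.7, 9.75 and 8.10 FPKM. The summed level of 4 peritubular markers went from 243.3 FPKM at d12 to 79.9 in adult testis, of 4 endothelial markers from 19.3 to 7.44, of 4 macrophage markers from 8.29 to 6.64 and of 6 Leydig cell markers from 131.6 to 580.7. Epithelium of the efferent ducts and epididymis, which is ciliated in part, was looked for because a testis piece may carry some of it: its 6 markers summed to between 0.223 and 0.488 FPKM, and Lcn5, Lcn8, Defb2 and Rnase9 were listed at 0 in 4 of 4 libraries. In bulk RNA, fewer cells of a type and less RNA per cell cannot be told apart, and the part that the cell mixture has in the levels below was not tested.

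As a group the 36 genes were lower at d12 than at d16 and d24, with their largest median log2 change, but not their largest difference in FPKM, between d12 and d16. Their median level over d12, d16, d24 and adult was 9.86, 24.4, 39.3 and 48.1 FPKM. Expressed as a share of the adult level of the same gene, the median member stood at 22.1% at d12, 54.0% at d16 and 97.5% at d24, where the median of the 13901 genes that averaged at least 1 FPKM over the 4 libraries stood at 86.6%, 91.4% and 101.4%. All 36 members passed this limit on low values. The median level of the 13901 genes was 6.66, 7.21, 9.73 and 10.3 FPKM at d12, d16, d24 and adult, below that of the members in each library. The lowest level was the d12 level for 34 of 36, the exceptions being Mkks and Bbs12, and the adult level was at least 2 times the d12 level for 31 and at least 4 times for 20. These counts were not made over all genes. The median ratio of adult to d12 level was 4.47 over the members and 1.15 over all genes. The FPKM of all genes summed to 283580 at d12 and 659202 in adult testis. Equal sums would lower these counts and raise the shares of the adult level.

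From d12 to d16, 21 of 36 members (58.3%) were at least 2-fold higher on the log2(FPKM + 0.1) scale, where 12.6% of the 13901 genes were, and none was at least 2-fold lower, where 3.67% of all genes were. From d16 to d24, 15 of 36 (41.7%) were at least 2-fold higher beside 27.5% of all genes, and 0 were lower beside 8.45%. From d24 to adult testis, 3 of 36 (8.33%) were at least 2-fold higher beside 11.4% of all genes, and 0 were lower beside 2.2%. The step to d16 thus held more members than its background, and the step to adult testis about as many as its background. Both of the earlier steps were past 2-fold in 8 members, the step to d16 alone in 13, the step to d24 alone in 7 and neither in 8, a split not counted over all genes. The change from d12 to d16 was the larger of the 2 on the log2 scale for 21 of 36 members (58.3%) and for 49.3% of all genes.

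The highest level was in the adult library for 22 of 36 members (61.1%; 36.3% of all genes), at d24 for 13 (36.1%; 18% of all genes), at d16 for 0 (10.4% of all genes) and at d12 for 1 (2.78%; 35.3% of all genes), the chaperonin-like gene Mkks. The median log2 difference of the members over the 3 steps was 1.17, 0.93 and 0.04. Relative to the median of all genes, 0, 0.13 and -0.02, this was 1.17, 0.80 and 0.06. How the libraries are scaled to each other weighs on the later steps: with equal FPKM sums across libraries, every ratio is divided by 1.09 from d12 to d16, 1.54 from d16 to d24 and 1.39 from d24 to adult testis, and the median of all genes was then -0.12, -0.51 and -0.50. Under that scaling the members' medians relative to all genes were 1.18, 0.82 and 0.05. Then 18, 6 and 1 of the 36 members were at least 2-fold higher, beside 11.45%, 18.5% and 6.33% of all genes. None was 2-fold lower, beside 6.23%, 31.2% and 10.4% of all genes. The member shares at the steps to d24 and to adult testis were thus no larger than those of all genes. Over the 3 steps, 1, 11 and 18 members took the other sign. The highest level was then in the adult library for 4 members, at d24 for 20, at d16 for 10 and at d12 for 2. The share of 2-fold calls that were higher among all genes moved from 76.5% to 37.2% for d16 to d24 and from 83.8% to 37.9% for d24 to adult testis. Members had no 2-fold lower call in any setting, so their own share could not move.

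**Figure D1:**
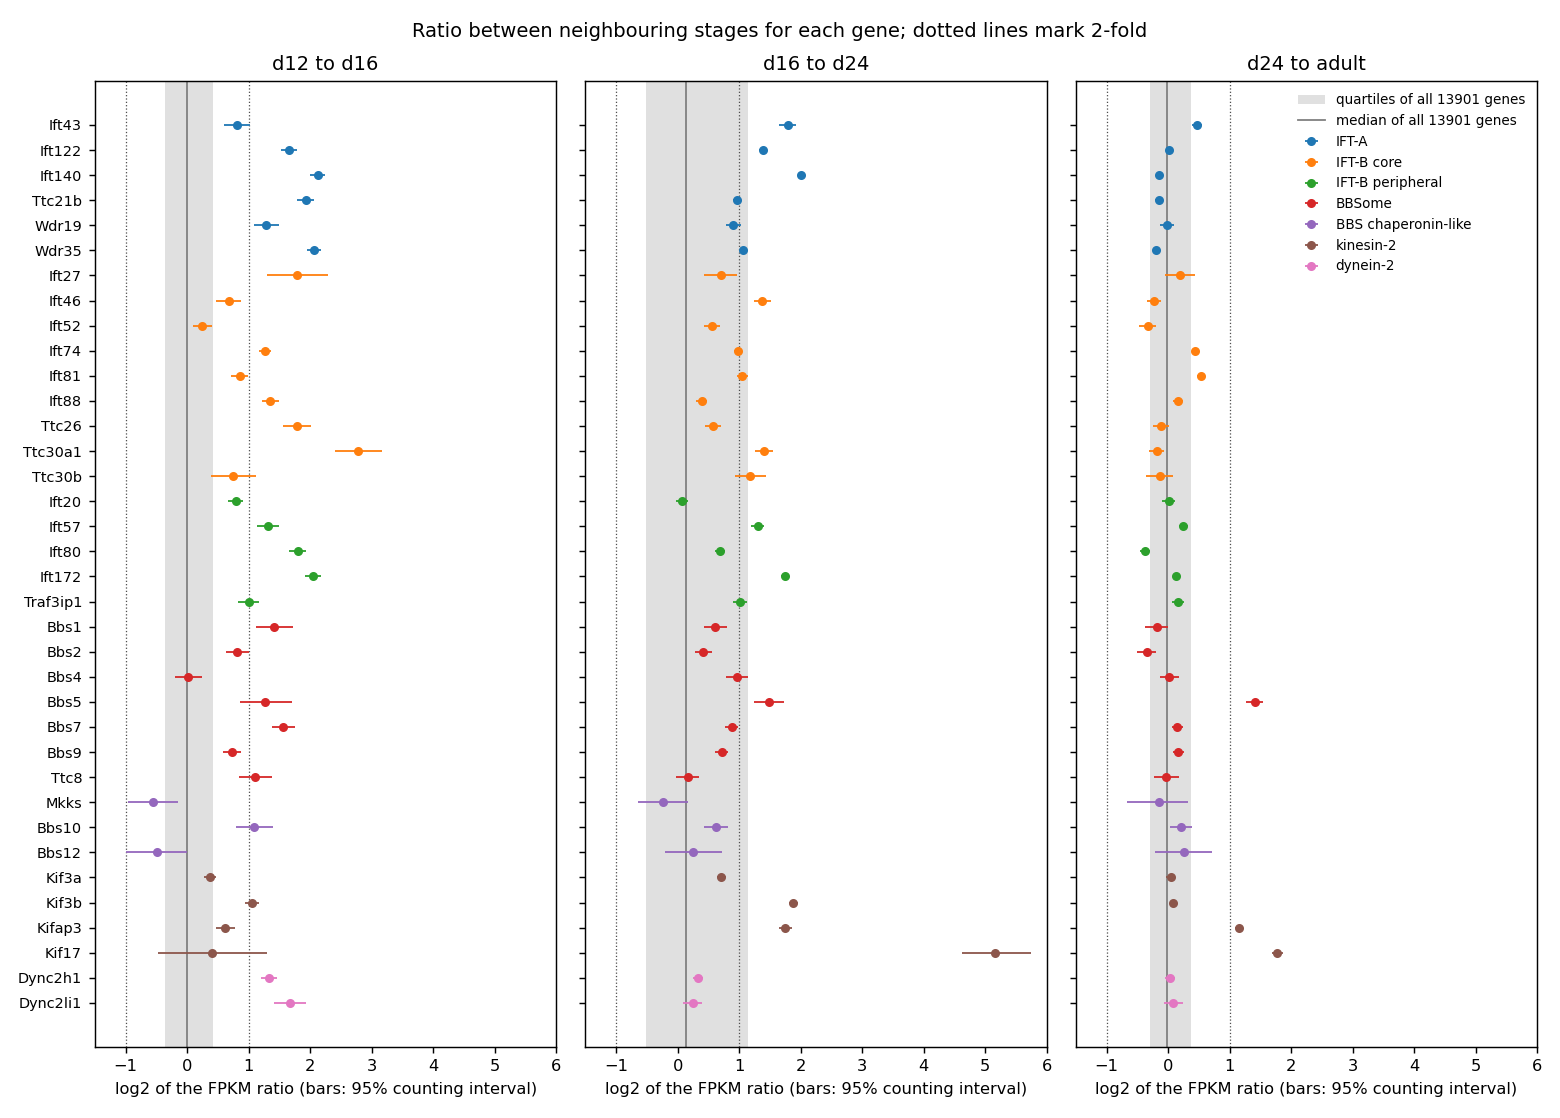
Log2 ratio of FPKM between neighbouring stages for each of the 36 genes, in 3 panels (d12 to d16, d16 to d24, d24 to adult), with bars for 95% counting intervals, the grey band for the quartiles of all 13901 genes and dotted lines at 2-fold. In the left panel 21 genes lie to the right of the right dotted line with Traf3ip1 (2.00) on it, in the middle panel 15 lie to the right of it and in the right panel 3, Kif17 reaches a 35.6-fold ratio in the middle panel, and Mkks and Bbs12 lie left of 0 in the left panel.

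Genes of cilia are commonly bound by RFX transcription factors at the X-box, an inverted pair of short sites, and the promoters of the members were searched for it to show what these genes share in sequence. A promoter of 250 bases before and 50 after the annotated start was at hand from RefSeq (GRCm38.p6) for 31 of the 36 genes, the exceptions being Dync2li1, Ift122, Ift80, Ift81 and Ttc30b. The pair was written as GTNNCC, 0 to 3 bases of any kind, and GGNNAC, which reads the same on both strands. It was present in 6 of 31 member promoters (19.4%) and in 3.86% of 32851 promoters of all genes. The single site GTTGCC, on either strand and including copies inside a pair, was present in 14 of 31 (45.2%) and in 12.5% of all promoters. These are matches of letters and do not show that a factor was bound. The windows of 30 bases around the pair are given on the strand of the gene, 5′ to 3′, with the pair in capitals, for the 5 genes with 1 pair.
Bbs1: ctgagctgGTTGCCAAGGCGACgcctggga
Bbs4: ctcagctgGTCGCCCGGGAAACggtcggct
Bbs7: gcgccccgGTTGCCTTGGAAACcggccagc
Ttc26: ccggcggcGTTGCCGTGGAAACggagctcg
Wdr19: tttgcacgGTCTCCTGGGTGACgagaacgc

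The windows lie at chr19:4906605-4906634 (Bbs1, minus strand), chr9:59353464-59353493 (Bbs4, minus), chr3:36613489-36613518 (Bbs7, minus), chr6:38381483-38381512 (Ttc26, plus) and chr5:65199654-65199683 (Wdr19, plus). Counted from the annotated start at +1, the pair begins at +2 in Bbs1, +24 in Bbs4, -121 in Bbs7, -33 in Ttc26 and -34 in Wdr19. In each of the 5 the sites are 2 bases apart. Wdr19 and Bbs4 hold a pair without the exact single site GTTGCC. Ift57 was the single member with 2 pairs, beginning at -87 and -60, and the 250 bases before its start (chr16:49699044-49699293, plus strand) are shown with both pairs in capitals.
Ift57: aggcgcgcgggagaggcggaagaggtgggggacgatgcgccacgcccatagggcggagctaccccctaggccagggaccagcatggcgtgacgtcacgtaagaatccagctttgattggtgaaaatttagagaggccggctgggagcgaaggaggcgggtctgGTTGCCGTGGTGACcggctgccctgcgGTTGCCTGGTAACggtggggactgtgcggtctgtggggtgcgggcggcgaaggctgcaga

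Bbs4 apart, the 6 genes with a pair were at least 2-fold higher at d16 than at d12, where 58.3% of all members, these genes included, were. Ttc30a1, Ift140, Wdr35 and Ift172, with ratios of 6.85, 4.35, 4.16 and 4.12 at this step, hold no pair in the promoter searched. From d12 to d16 the ratio was 2.67 for Bbs1, 2.95 for Bbs7, 3.43 for Ttc26, 2.44 for Wdr19 and 2.48 for Ift57, and 1.01 (0.867 to 1.18) for Bbs4. Among the factors that can read such sites, Rfx2 stood at 1.02, 12.8, 72.2 and 82.5 FPKM and Rfx4 at 0.415, 6.83, 31.4 and 37.2 FPKM at d12, d16, d24 and adult. Rfx3 stood at 3.01, 2.98, 3.36 and 6.39 FPKM, Rfx1 at 0.842, 1.09, 4.12 and 6.85 FPKM, and Foxj1, another regulator of motile cilia genes, at 0.650, 0.279, 15.8 and 28.2 FPKM. Rfx2 and Rfx4 were higher at d16 than at d12, and Foxj1 was not (21 fragments at d12 and 9 at d16). Whether a pair or any of these factors bears on the levels of the members was not tested.

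IFT-A is the complex for the return journey and for bringing membrane proteins into the cilium. It had the largest median step to d16 among the subcomplexes, 1.78 on the log2 scale. Of its 6 genes, 5 were at least 2-fold higher at d16, where 12.6% of all genes were. Ift140 (chr17:25016086-25099499, plus strand), a core subunit, stood at 9.37, 40.8, 164.0 and 147.4 FPKM at d12, d16, d24 and adult. Its level was 4.35 times higher at d16 than at d12 (4.00 to 4.74) and 4.02 times higher at d24 than at d16 (3.87 to 4.18). Wdr35, which encodes IFT121, stood at 15.3, 63.5, 132.7 and 116.3 FPKM, with the ratios 4.16 (3.86 to 4.49) and 2.09 (2.01 to 2.17). With equal FPKM sums across libraries, the d16 to d24 ratios are 2.62 for Ift140 and 1.36 for Wdr35. Both had most of their adult level by d24, and their adult values were 0.90 and 0.88 times the d24 values.

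Ttc21b, which encodes IFT139 at the edge of the complex, stood at 9.66, 36.8, 71.8 and 64.9 FPKM. Ift122, another core subunit, stood at 13.6, 42.8, 112.5 and 113.5 FPKM. As deposited, its d24 and adult levels differed by less than counting error (ratio 1.01, 0.973 to 1.05). Equal FPKM sums across libraries divide each ratio of this step by 1.39. Ift43 was the exception in the group: it was the highest of the 6 at d12 with 30.2 FPKM, its ratio to d16 was 1.76 (1.52 to 2.04), and its larger step came from d16 to d24, from 53.2 to 183.9 FPKM (3.46-fold, 3.15 to 3.80). It reached 254.2 FPKM in adult testis. Wdr19, which encodes the core subunit IFT144, was the lowest of the 6 in every library, at 6.27, 15.3, 28.8 and 28.3 FPKM. Ift140 was 1.49 times as high as Wdr19 at d12 (1.29 to 1.73) and 5.70 times at d24 (5.45 to 5.96), so that 2 core subunits of 1 complex did not keep a fixed ratio of RNA.

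**Figure D2:**
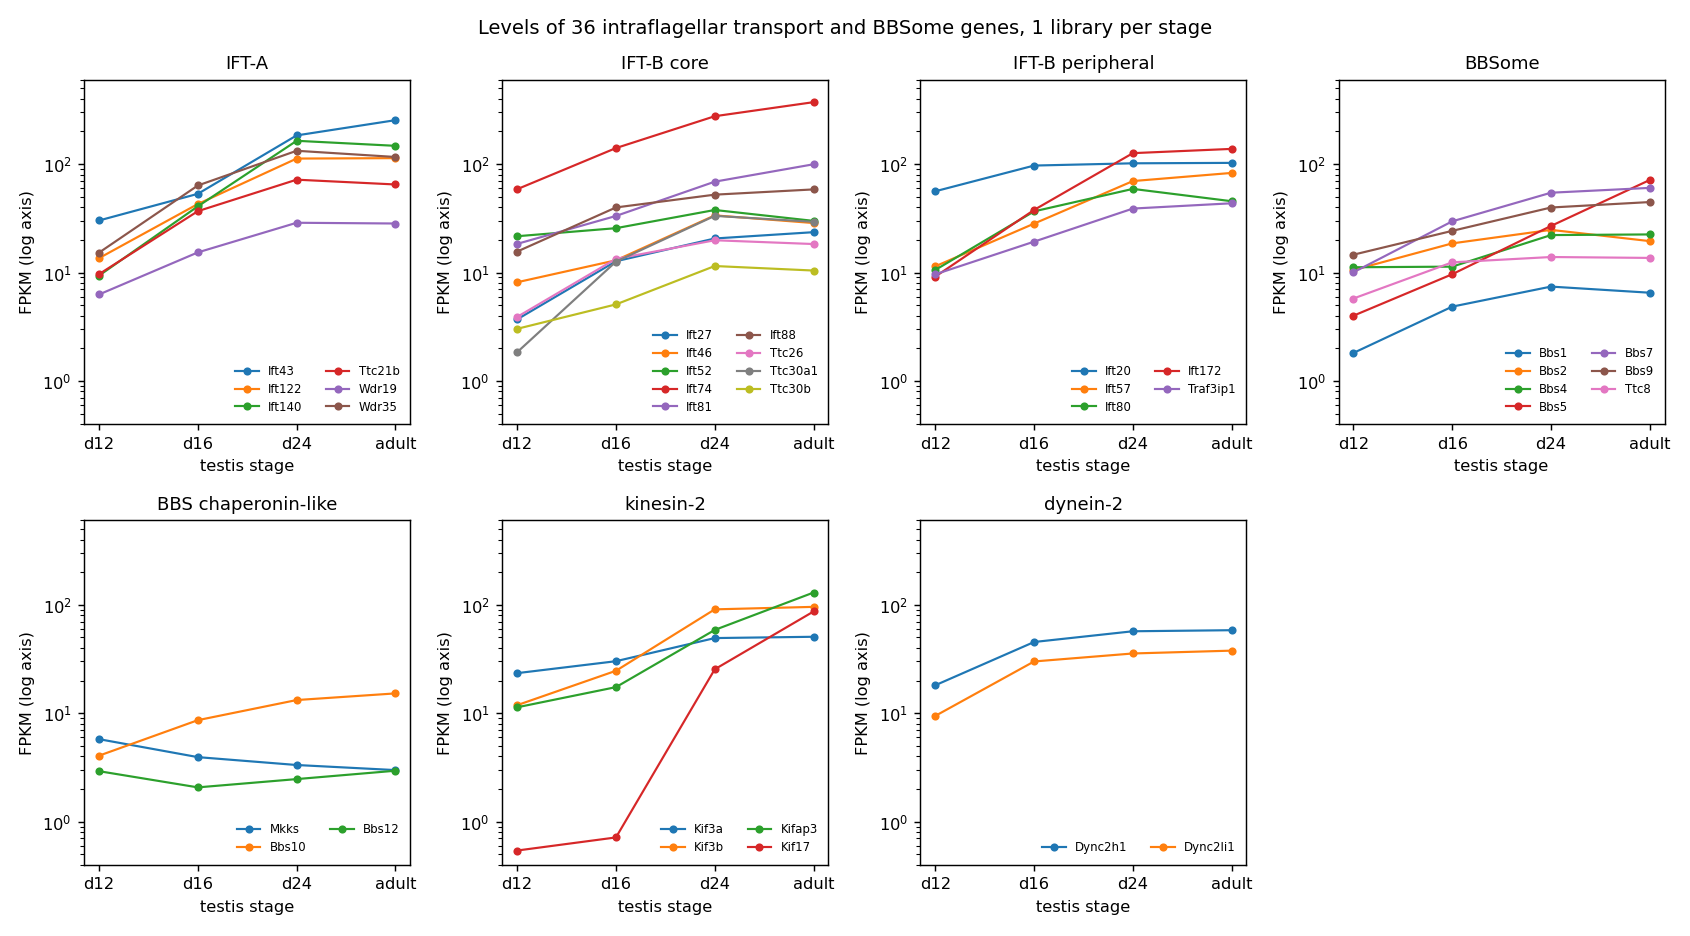
FPKM on a log axis at d12, d16, d24 and adult for the 36 genes, in 7 panels by subcomplex, with 1 point per library and lines joining the points of a gene. IFT-A and IFT-B lines climb mainly up to d24, Ift74 is the highest gene in every library, Kif17 goes from 0.715 FPKM at d16 to 25.4 at d24, and Mkks and Bbs12 stay between 2 and 6 FPKM.

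The core of IFT-B, the complex for the outward journey, had 5 of 9 genes at least 2-fold higher at d16 and 4 of 9 at d24. Over all genes these shares were 12.6% and 27.5%. With equal FPKM sums across libraries, the d16 to d24 ratios of these 4 genes are under 2-fold. They are 1.69 for Ift46, 1.35 for Ift81, 1.72 for Ttc30a1 and 1.47 for Ttc30b. The median log2 changes of the core were 1.26, 0.98 and -0.12 over the 3 steps. Ift74 and Ift81 encode the pair of subunits that binds tubulin, the main cargo of a growing tail. Ift74 stood at 58.7, 140.6, 276.4 and 372.6 FPKM and was the highest of all 36 members in each library. Ift81 stood at 18.4, 33.2, 68.8 and 99.6 FPKM. The ratio of Ift74 to Ift81 was 3.19 at d12 (2.90 to 3.51), 4.23 at d16 (3.95 to 4.53), 4.02 at d24 (3.88 to 4.16) and 3.74 for the adult (3.57 to 3.92), so the partners stayed within a narrow band while each was over 5 times higher in adult testis than at d12.

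Ift88, the gene disrupted in a classical mouse model of polycystic kidneys, stood at 15.6, 39.8, 52.3 and 58.4 FPKM, with most of its difference before d16 (2.55-fold, 2.32 to 2.81). Ift52, which holds the core together, differed least: it stood at 21.6, 25.6, 37.7 and 29.9 FPKM. Ift46 had its larger step later, at 8.14, 12.97, 33.6 and 28.6 FPKM, with a ratio of 1.59 to d16 and 2.59 to d24. Ttc26, which encodes IFT56, stood at 3.90, 13.4, 19.8 and 18.3 FPKM. Ift27, a small Rab-like GTPase that links the trains to BBSome traffic, stood at 3.70, 12.7, 20.6 and 23.6 FPKM, from 46 fragments at d12, with a ratio to d16 of 3.43 (2.46 to 4.88).

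Ttc30a1 (chr2:75979106-75981967, minus strand) and Ttc30b (chr2:75935849-75938462, minus strand) are neighbouring copies that encode IFT70. Ttc30a1 stood at 1.84, 12.6, 33.3 and 29.3 FPKM, and its ratio of 6.85 to d16 (5.28 to 9.004) was the largest of the 36 at that step. Ttc30b stood at 3.03, 5.08, 11.5 and 10.4 FPKM. The balance of the copies was not the same at d12 and d16: Ttc30a1 was 0.609 times Ttc30b at d12 (0.439 to 0.839), 2.48 times at d16 (2.07 to 2.98), 2.90 times at d24 (2.66 to 3.17) and 2.81 times for the adult (2.43 to 3.27). A further copy, Ttc30a2, was named after its values were seen, since it shares sequence with both, and stood at 1.19, 23.4, 101.3 and 97.5 FPKM. Of the stretches of 50 bases in the transcripts, 28.4% of Ttc30a1 and 30.1% of Ttc30b also occur in Ttc30a2, so how the authors assigned fragments among the 3 copies can move these values. Apart from these and Mkks (28.6% shared with the gene model AL731706.1), no member shared over 1.46% of its stretches with another gene.

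The 5 peripheral IFT-B genes connect the trains to the motors and to membrane vesicles. Ift172, the largest subunit, stood at 9.17, 37.8, 126.2 and 138.1 FPKM, 4.12 times higher at d16 than at d12 (3.77 to 4.51) and 3.34 times higher at d24 than at d16 (3.20 to 3.48). Ift57, whose promoter with 2 pairs is shown above, stood at 11.4, 28.3, 69.7 and 82.9 FPKM, with ratios of 2.48 and 2.47 for these steps, or 2.28 and 1.61 with equal FPKM sums across libraries. Traf3ip1, the microtubule-binding subunit IFT54, stood at 9.63, 19.3, 38.9 and 43.5 FPKM, with ratios of 2.00 and 2.02, the second being 1.315 under that scaling. These 3 genes were higher at d16 than at d12 and higher again at d24.

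Ift80 and Ift20 followed other courses. Ift80 stood at 10.6, 36.7, 59.1 and 45.5 FPKM, and its adult level was 0.77 times its d24 level (0.728 to 0.814), the lowest ratio of the 36 at that step. Ift20, which also works at the Golgi apparatus in sorting membrane proteins for the cilium, was already at 56.2 FPKM at d12, went to 97.0 at d16 (1.73-fold, 1.58 to 1.89), and then lay at 101.7 at d24 and 102.6 in adult testis. As deposited, its ratio from d16 to d24, 1.05 (0.982 to 1.12), was within counting error of 1. Ift20 was 1 of 4 members for which that interval held 1, beside Ttc8, Mkks and Bbs12. Equal FPKM sums across libraries divide each ratio of this step by 1.54.

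The BBSome had 4 of 7 genes at least 2-fold higher at d16 and 1 of 7 at d24. Over all genes these shares were 12.6% and 27.5%. Its median log2 changes were 1.095, 0.71 and 0.02. Bbs7, Bbs1, Bbs2 and Bbs9 encode subunits with a beta-propeller fold. Bbs7 was the highest subunit at d16 and d24, at 10.1, 29.7, 54.5 and 60.3 FPKM. Bbs1, the subunit that touches the membrane GTPase ARL6, was the lowest in each library, at 1.81, 4.85, 7.42 and 6.51 FPKM. Bbs9 stood at 14.6, 24.2, 39.8 and 44.7 FPKM and Bbs2 at 10.5, 18.6, 24.7 and 19.5 FPKM, with ratios to d16 of 1.66 and 1.76, both under 2-fold.

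Bbs4 and Ttc8, which encodes BBS8, are the subunits made of tetratricopeptide repeats, and their times differed. Bbs4 stood at 11.2 FPKM at d12 and 11.3 at d16 and was then 1.96 times higher at d24 (1.73 to 2.22), at 22.1 FPKM, with 22.5 in adult testis. Equal FPKM sums across libraries divide its d16 to d24 ratio by 1.54. Ttc8 stood at 5.76, 12.4, 13.9 and 13.6 FPKM, so that its difference lay between d12 and d16. Bbs5 (chr2:69647171-69667571, plus strand), which binds phosphoinositide lipids of the membrane, was the subunit with the widest range, at 4.00, 9.64, 26.9 and 71.4 FPKM. It was higher at each step, by 2.41 (1.81 to 3.24), 2.79 (2.36 to 3.32) and 2.65 times (2.41 to 2.92), and the later ratios are 1.82 and 1.90, under 2-fold, with equal FPKM sums across libraries. Bbs5 was 1.99 times as high as Bbs1 at d16 (1.64 to 2.40) and 11.0 times in adult testis (9.64 to 12.5), and subunits that stand in 1 complex thus spread from 6.51 to 71.4 FPKM in the adult library.

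Mkks, Bbs10 and Bbs12 encode relatives of chaperonins that help the BBSome to assemble and are not parts of it. Of the 3, 1 was at least 2-fold higher at d16, where 12.6% of all genes were. Mkks (chr2:136873780-136891406, minus strand), which encodes BBS6, stood at 5.76 FPKM at d12 (4.82 to 6.84), 3.94 at d16 (3.16 to 4.84), 3.33 at d24 (2.79 to 3.95) and 2.99 for the adult (2.204 to 3.96), from 48 to 132 fragments. It was the single member with a lower adult than d12 level, at 0.519 times. Bbs12 stood at 2.92, 2.07, 2.47 and 2.95 FPKM, and was the lowest member at d24 and in adult testis. For these genes alone the interval of the ratio from d12 to d16 lay wholly below 1, at 0.683 (0.515 to 0.901) for Mkks and 0.709 (0.502 to 0.996) for Bbs12. Bbs10 followed the BBSome more closely, at 4.06, 8.63, 13.2 and 15.2 FPKM, and was 2.13 times higher at d16 than at d12 (1.73 to 2.62).

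The proportions of the kinesin-2 RNAs were not the same at each stage. The heterotrimeric form is made of the motor subunits KIF3A and KIF3B and the adaptor KAP3, encoded by Kifap3, and KIF17 forms a second motor of 2 equal chains that in testis is also known to carry the transcription coactivator ACT. Kif3a stood at 23.4, 30.2, 49.3 and 50.7 FPKM and differed least among the 4 genes. Kif3b stood at 11.9, 24.6, 90.8 and 95.7 FPKM. The ratio of Kif3b to Kif3a, which does not depend on the scaling between libraries, was 0.507 at d12 (0.466 to 0.551), 0.816 at d16 (0.765 to 0.871), 1.84 at d24 (1.78 to 1.90) and 1.89 for the adult (1.80 to 1.98). Kif3b thus lay below its partner at d12 and d16 and above it later.

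Kifap3 (chr1:163779583-163917107, plus strand) stood at 11.3, 17.4, 58.6 and 129.8 FPKM, and its adult level was 2.21 times its d24 level (2.13 to 2.30), or 1.59 times with equal FPKM sums across libraries. Relative to Kif3a it was 0.484 at d12, 0.577 at d16, 1.19 at d24 (1.14 to 1.23) and 2.56 for the adult (2.44 to 2.69). Kif17 (chr4:138262251-138301973, plus strand) was the lowest member at d12 and d16, with 0.541 FPKM (21 fragments, 0.335 to 0.828) and 0.715 FPKM (28 fragments, 0.475 to 1.03). It then stood at 25.4 FPKM from 1722 fragments at d24, and 86.8 FPKM from 2385 fragments for the adult. From d16 to d24 it was 35.6 times higher (24.5 to 53.7), a change that 4.85% of all genes exceeded, and from d24 to adult testis 3.41 times (3.21 to 3.63). These ratios are 23.2 and 2.45 with equal FPKM sums across libraries. From d12 to d16 its ratio of 1.32 (0.724 to 2.45) was within counting error of 1, so its differences came after d16. From d16 to d24 the summed level of the round spermatid markers went from 15.3 to 557.9 FPKM. That of the elongating spermatid markers went from 4.45 to 2363 FPKM, and that of the pachytene markers from 827.0 to 3630 FPKM. Whether its RNA lay in any of these cells was not tested.

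**Figure D3:**
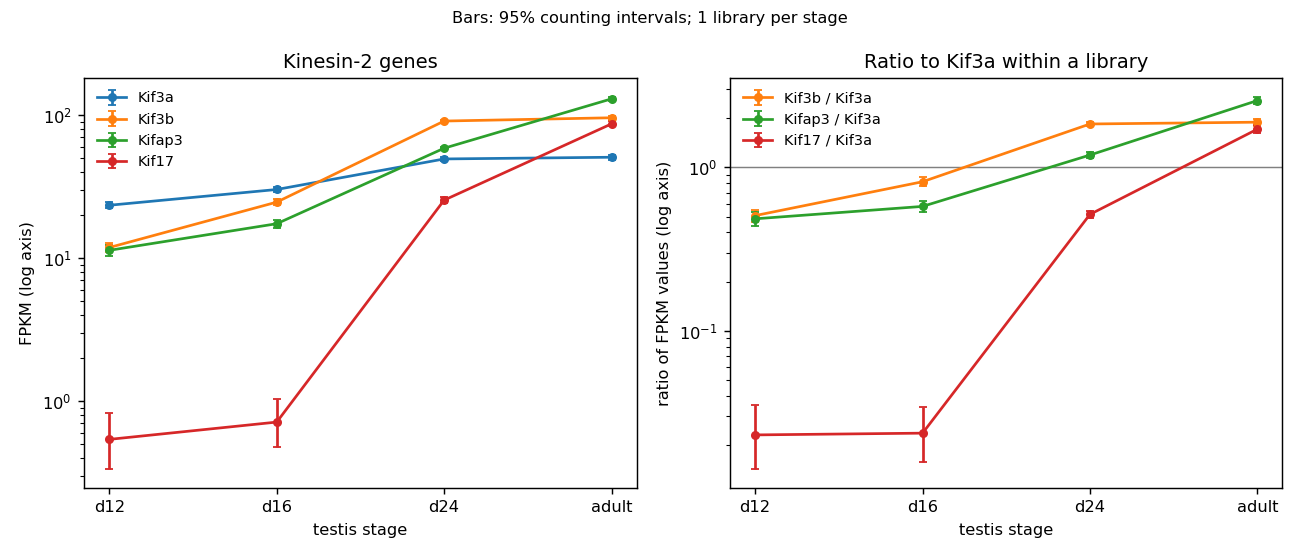
FPKM of Kif3a, Kif3b, Kifap3 and Kif17 by stage (left) and the ratio of the other three to Kif3a within each library (right), both on log axes, with bars for 95% counting intervals and 1 library per stage. Kif3b and Kifap3 lie below Kif3a at d12 and d16 and above it at d24 and adult, and Kif17 goes from 0.0231 times Kif3a at d12 to 1.71 times in adult testis.

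Of the dynein-2 genes, 2 are members. Dync2h1, the heavy chain that is the motor itself, stood at 18.1, 45.4, 57.0 and 58.3 FPKM, and Dync2li1, a light intermediate chain, at 9.45, 30.0, 35.6 and 37.8 FPKM. Both were past 2-fold from d12 to d16 (2.51, 2.29 to 2.74, and 3.18, 2.66 to 3.82) and neither was from d16 to d24 (1.26 and 1.18). The d16 levels were, by the median, 78.7% of the adult level for these 2 genes, where the 4 kinesin-2 genes stood at 19.6% and the 6 IFT-A genes at 45.9%. The ratio of Dync2h1 to Dync2li1 was 1.92 at d12 (1.61 to 2.29) and 1.54 in adult testis (1.39 to 1.72). As deposited, the further subunits of dynein-2 named here did not follow this pair. Tctex1d2 and Dynlt1b, light chains, stood at 19.4, 58.1, 229.8 and 306.4 FPKM and at 18.4, 45.2, 186.4 and 167.2 FPKM, and had the larger log2 change from d16 to d24. Wdr60 and Wdr34, intermediate chains, stood at 19.2, 53.4, 110.4 and 150.5 FPKM and at 4.21, 10.5, 21.7 and 12.8 FPKM, past 2-fold at both of the earlier steps. With equal FPKM sums across libraries, Wdr60 and Wdr34 are under 2-fold from d16 to d24 and the larger change of Tctex1d2 lies before d16, while that of Dynlt1b stays after it. These 4 genes were chosen after their values were seen.

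Another 17 genes of the same machinery were read beside the members, among them further IFT, BBSome and dynein-2 subunits. Of these 17 (16 averaged at least 1 FPKM), 8, 9 and 1 were at least 2-fold higher over the 3 steps, and none was at least 2-fold lower. Of all genes, 12.6%, 27.5% and 11.4% were higher and 3.67%, 8.45% and 2.2% lower. The median log2 changes of the 17 were 0.98, 1.04 and 0.22. By the rule of the largest and smallest change from d16 to d24, the named genes are Dynlrb2 and Dynlrb1, alternative light chains of dynein. Dynlrb2 stood at 1.09 (7 fragments), 27.2, 126.5 and 179.4 FPKM, and Dynlrb1 at 84.2, 62.7, 34.4 and 34.0 FPKM. The lower of the pair at d12 was thus the higher at d24 and in adult testis. Hspb11, which encodes IFT25, the partner of IFT27, was chosen after its values were seen and stood at 20.4, 23.2, 18.1 and 21.1 FPKM, while Ift27 went from 3.70 to 23.6 FPKM.

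Genes of the axoneme itself, 24 of them, were read as a further comparison. Among them are genes for dynein arms, radial spokes, the central pair and tektins. At d12 their median was 0.921 FPKM, and 6 of 24 had at least 2 FPKM. That level was reached at d12 by 33 of 36 members, 14 of the 17 further genes above and 10726 of the 13901 genes. The exceptions among the members were Ttc30a1, Bbs1 and Kif17. The median axoneme gene stood at 0.968% of its adult level at d12, 15.9% at d16 and 88.8% at d24, where the median member stood at 22.1%, 54.0% and 97.5%. At least 2-fold higher were 23, 23 and 0 of the 24 axoneme genes (23 averaged at least 1 FPKM) over the 3 steps. Over all genes these shares were 12.6%, 27.5% and 11.4%. The median log2 changes of the axoneme genes were 3.55, 2.55 and 0.17. Tekt4, a tektin of the tail, had the largest change of the list from d16 to d24, from 2.19 to 86.2 FPKM, and Rsph4a, a radial spoke gene, the smallest, from 0.438 to 0.274 FPKM. The median ratio of adult to d12 level was 96.6 over the axoneme genes, 5.14 over the 17 further genes and 4.47 over the members. Among the members Kif17 had the highest with 160.2. The difference between the lists was not tested. The X-box pair was present in 3 of 25 axoneme promoters (12%) and the single site in 10 of 25 (40%), and in 3 and 6 of 18 promoters of the further IFT genes (16.7% and 33.3%).

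**Figure D4:**
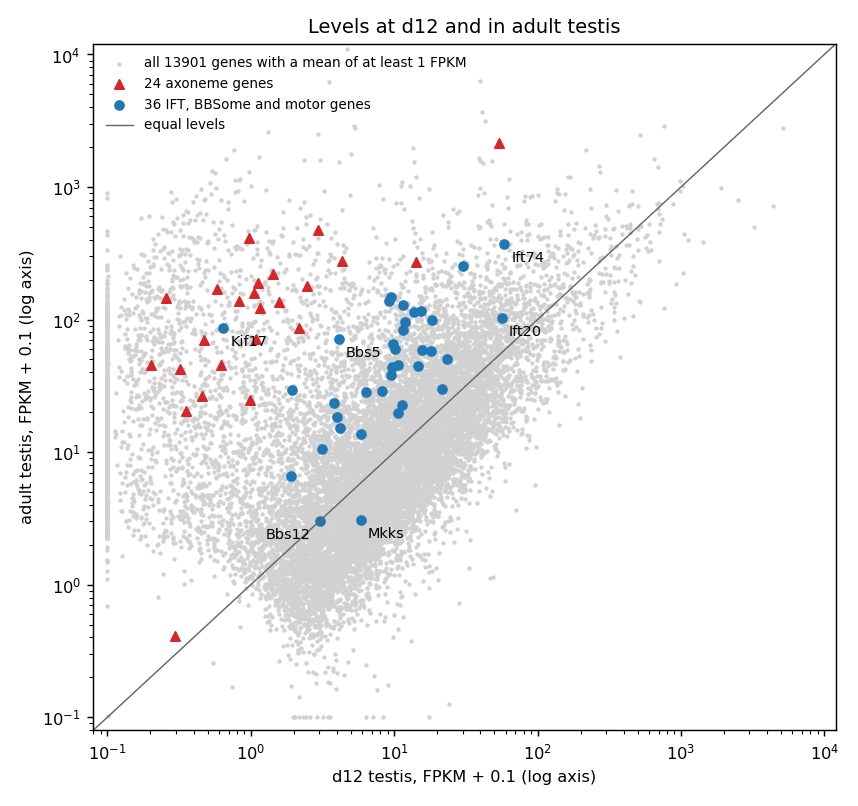
Adult against d12 level (FPKM + 0.1, both axes log) for all 13901 genes that averaged at least 1 FPKM (grey), the 24 axoneme genes (red triangles) and the 36 members (blue circles), with the line of equal levels. Of the members, 35 lie above the line and Mkks below it, Bbs12 lies next to it, and Kif17 lies among the axoneme genes.

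The order of the members by level was closer from d16 on than before it. Across the 36 genes, which are not independent replicates and share libraries, Spearman's rho between levels was 0.805 for d12 and d16, 0.904 for d16 and d24, 0.926 for d24 and adult, and 0.595 for d12 and adult. The highest member was 108.4 times the lowest at d12, 196.6 at d16, 112.0 at d24 and 126.4 for the adult. By counting error alone, the ratio from d12 to d16 lay above 1 for 32 members, below 1 for 2 and held 1 for 2. From d16 to d24 these counts were 32, 0 and 4, and from d24 to adult testis 14, 9 and 13, where the scaling between libraries decides the sign for up to 18 members. The intervals were not counted over all genes, so these counts cannot be set against a background.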

How the data were processed

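Total RNA from a testis piece was made into strand-specific libraries (ScriptSeq v2) and sequenced as read pairs, 1 library per stage. The authors aligned them with TopHat2 2.1.0 (Bowtie 1.1.2) against GRCm38/mm10 and its RefSeq annotation, allowing 1 location per pair. They deposited FPKM values per gene, made by Cuffdiff (Cufflinks 2.2.1) with its corrections for multiply mapping reads and fragment bias switched on and effective length correction off. The scaling between libraries is not given in the sources used here. The 4 H3K27ac samples were not analysed here.

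Log2 ratios used FPKM + 0.1, and a call was a ratio of at least 2-fold among the 13901 of 23983 genes that averaged at least 1 FPKM. Fragments were recovered from FPKM times transcript length over 14603 genes with 1 curated transcript. 1 fragment per kb was worth 0.0799, 0.0800, 0.0455 and 0.112 FPKM at d12, d16, d24 and adult, and between 91.7% and 92.3% of values up to 20 fragments lay within 0.05 of a whole number. For the 18 members with several transcripts the shortest was used, which gives the widest interval. Because FPKM are not counts and each stage has 1 library, no count test was run. Shared stretches of 50 bases were searched in GENCODE M21 transcripts. Python 3.11.15, numpy 2.4.6, pandas 2.3.3, scipy 1.17.1 and matplotlib 3.10.9 were used, and the scripts were tested on simulated data.

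The members and gene lists were chosen with earlier results of these data known. Named are all members, the genes of the other IFT and axoneme lists with the highest and lowest change from d16 to d24, member promoters with an X-box pair, and marker lists by their sums or medians. Alternatives were 2 rescalings, centring on the median gene, a pseudocount of 1 FPKM and no limit on low values.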

Additional observations from a re-analysis of the deposited data

How the results depend on the processing

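With equal FPKM sums across libraries, 6 members were at least 2-fold higher from d16 to d24 (median log2 change 0.32) and 1 from d24 to adult testis (-0.44). Of all genes, 18.5% and 6.33% were then higher at these steps. Under this scaling 4 members were highest in adult testis, 20 at d24, 10 at d16 and 2 at d12. The 6 were Ift43, Ift140, Ift172, Kif3b, Kifap3 and Kif17, and the 1 was Kif17. With the same upper quartile the medians were 0.65 and -0.20. Then 7 members were highest in adult testis, 24 at d24, 3 at d16 and 2 at d12. Centring each step gave a median of 0.80 from d16 to d24. The causes of these moves lie in the scaling itself, which shifts all genes alike. From d12 to d16 the count lay between 18 and 21 under every alternative; Ttc8, Bbs10 and Kif3b were under 2-fold with both rescalings. A pseudocount of 1 FPKM gave 18, 14 and 3 members, and no limit on low values gave the reported counts. The number of members with the larger change before d16, an alternative added after the data were seen, lay between 20 and 29. Of 116 alternatives, 44 ratios of single members and 9 counts or medians moved beyond their tolerance, and 34 and 29 did not. No rescaling divides a ratio between neighbouring stages by over 1.54, so none could turn the sign of a 2-fold call at these steps. Ratios of adult to d12 level span all of the steps, would be divided by more, and were not rescaled.

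No paired analysis was possible because each stage has 1 library, and no library could be left out for the same reason. Depth limits Kif17 at d12 and d16 (21 and 28 fragments) and Ift27 at d12 (46 fragments).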
